A study of Homo sapiens with 18 samples.

Results

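The genes described here are the 39 HOX genes of the 4 human clusters, taken by their symbols from 35579 genes to which the quantified transcripts could be assigned. The set holds 11 genes of the HOXA cluster, 10 of HOXB, 9 of HOXC and 9 of HOXD. HOX genes encode homeodomain transcription factors that give cells their position along the body axes. Their order on the chromosome follows their order of use from head to tail, and in limbs and external genitalia the genes at the 5′ ends of HOXA and HOXD mark distal positions. Adult skin fibroblasts are known to keep a HOX pattern that records the site they came from, and Polycomb and Trithorax complexes hold the silent and active states.

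The data are poly(A) RNA-seq of hiF-T cells, an established line derived from BJ human skin fibroblasts that carries hTERT, the catalytic subunit of telomerase, under inducible control. All groups share this line and a genotype labelled WT. The control group had a control guide (4 libraries, guides 1 and 2), and the other groups had CRISPR guides against CDKN1A (4 libraries, guides 1 and 2), KDM1A (4 libraries, guides 2 and 3) or SPP1 (6 libraries, guides 1, 2 and 3), with biological replicates 1 and 2 of each guide. CDKN1A encodes a cyclin-dependent kinase inhibitor, KDM1A a histone H3 lysine demethylase and SPP1 the secreted protein osteopontin. The sources used here do not give how the guides lower the mRNA or whether replicates are separate cultures. The p-values therefore measure the spread between these libraries, which may in part be technical. In the tests between groups the 2 libraries of a guide enter as separate libraries, though they share that guide. Those p-values thus do not take the guide as the unit. With the libraries of a guide summed, none of the HOX calls against control given below was made.

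Totals ran from 11907197 to 17016094 estimated counts a library, and 13527 genes were tested. Of 11 fibroblast markers 10 were tested, among them COL1A1 at 1126 to 1880 TPM (transcript abundance scaled for length and depth). THY1 was at 0.353 TPM on average, and KRT5, CDH5 and CD3E were at 0.0134, 0.0245 and 0.00483. KRT5 is 1 of 8 keratinocyte markers, which together summed to 145 to 197 TPM. Levels are in CPM (counts scaled by library size and TMM factors), or in TPM where genes are compared with each other. CDKN1A mRNA was 275 to 435 CPM with its guides against 540 to 695 in control libraries, and KDM1A mRNA was 50.7 to 75.0 against 110 to 125. SPP1 mRNA was 21.7 to 63.0 CPM with its guides against 55.2 to 72.7, a fall that did not pass the test (log2 fold change -0.70, edgeR adjusted p = 0.070). The 63.0 CPM of SPP1 guide 3 replicate 1 lay inside the control range, so this group is called by its label below. SPP1 mRNA was also higher in the other knockdowns, at 99.7 to 131 CPM in CDKN1A and 126 to 135 in KDM1A libraries. In such bulk libraries, fewer cells of a kind and less RNA per cell cannot be told apart.

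HOX genes are alike in the homeobox, the stretch that encodes the DNA-binding homeodomain, so reads there can fit more than 1 gene. The 60 bases around the recognition helix are shown for HOXA10 and HOXA11 and for the 3 posterior HOXD genes the results turn on. They were taken from GENCODE 29 coding transcripts with GRCh38 coordinates, and each lies in exon 2. Capitals mark the codons of the conserved core of the recognition helix.
HOXA10, chr7:27171956-27172015, minus strand: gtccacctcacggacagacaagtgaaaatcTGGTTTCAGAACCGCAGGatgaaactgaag
HOXA11, chr7:27182847-27182906, minus strand: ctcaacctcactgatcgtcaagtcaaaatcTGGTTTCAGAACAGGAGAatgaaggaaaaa
HOXD10, chr2:176119115-176119174, plus strand: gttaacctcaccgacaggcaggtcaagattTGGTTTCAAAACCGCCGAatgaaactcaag
HOXD11, chr2:176109032-176109091, plus strand: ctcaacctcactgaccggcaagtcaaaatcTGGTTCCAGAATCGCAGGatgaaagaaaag
HOXD13, chr2:176094635-176094694, plus strand: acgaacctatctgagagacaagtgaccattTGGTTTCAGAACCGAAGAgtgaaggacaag
HOXA10 and HOXD10, which share a group number, differed at 12 of these 60 bases, HOXA11 and HOXD11 at 9, and HOXD10 and HOXD11 at 15. Over all 39 genes, the 42 pairs with the same group number differed at a median of 9 bases (5 to 16) and the 699 other pairs at a median of 16 (2 to 26). Over whole transcripts the overlap was small for most genes. HOXA7 shared 0.672% of its 31-base words with another quantified gene, HOXA11, HOXD13 and HOXD1 shared 0%, and HOXA9 and HOXA10 shared 12.3% and 9.01%, nearly all with a read-through gene that held 1.26 counts on average. HOXD10 and HOXD11 shared 16.1% and 20.5%, and HOXD3 and HOXD4 shared 61.9% and 78.2%, so the counts of these last 4 depend on how kallisto divided the reads.

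HOXA and HOXD were on along most of their length, HOXB and HOXC at single genes. Of the 39 genes, 21 were expressed (a mean of at least 1 TPM in at least 1 group, with enough counts to be tested), HOXC11 was tested but stayed under 1 TPM in every group, and 17 were below the filter on low counts. The HOXA cluster (chr7:27092993-27200106) had 10 of 11 genes expressed, and HOXA13 never exceeded 4 counts. The HOXD cluster (chr2:176092891-176190907) had 8 of 9 genes expressed, all but HOXD12. HOXD3 is among them by its gene value, of which 97.8% of counts were on 1 noncoding transcript. HOXD1 counts as expressed through the KDM1A group alone, at 1.11 TPM on average (1.63 and 1.32 with guide 2, 0.802 and 0.679 with guide 3). Its means were 0.635 TPM in control, 0.533 in CDKN1A and 0.556 in SPP1 libraries. The HOXB cluster (chr17:48528526-48729178) had 2 of 10, HOXB2 and HOXB3, and the HOXC cluster (chr12:53938765-54056030) had 1 of 9, HOXC9. The genes below the filter thus had different positions: in HOXA it was the most 5′ gene (HOXA13), whereas in HOXD the most 5′ gene, HOXD13, was expressed and its neighbour HOXD12 was below the filter.

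**Figure D1:**
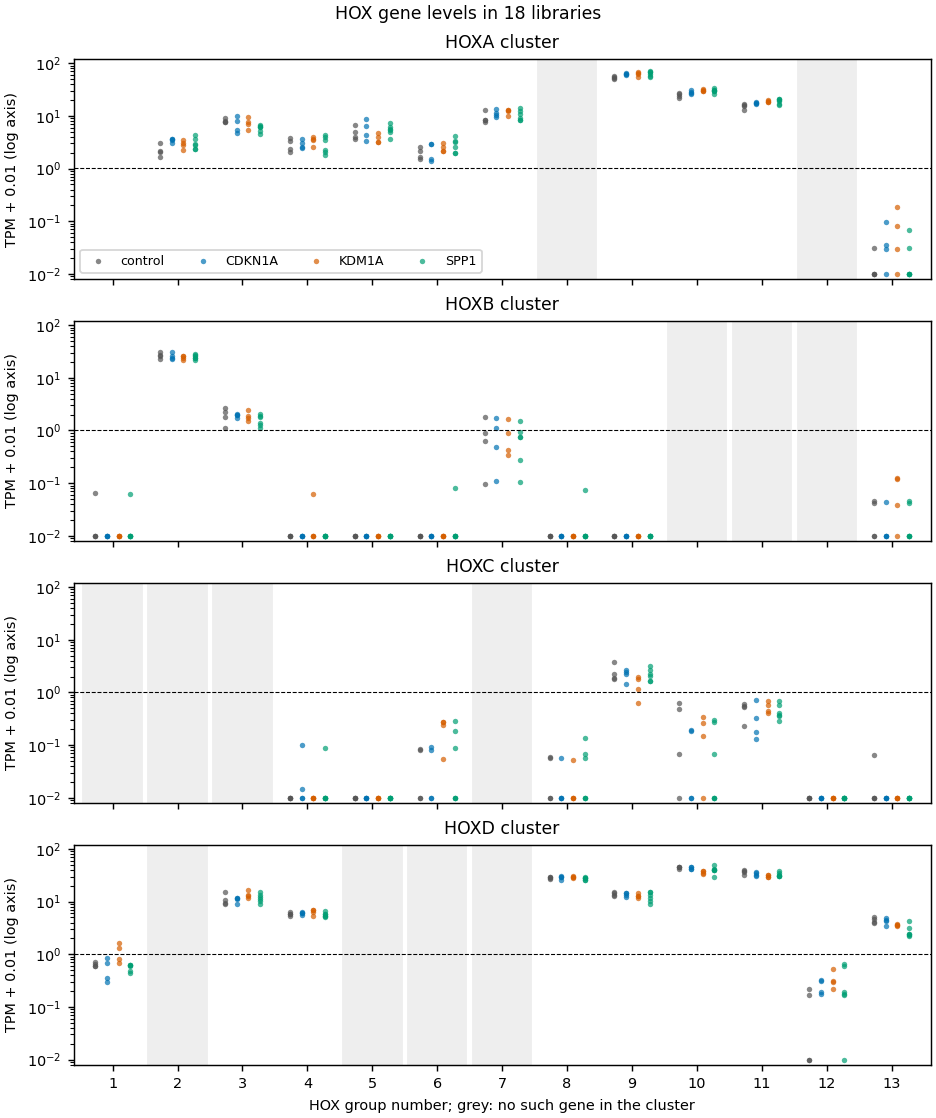
TPM of 38 of the 39 HOX genes (vertical log axis, 0.01 added) by group number in the 4 clusters, with 1 point per library coloured by group; the dashed line is at 1 TPM and grey bands have no gene. HOXA2 to HOXA11 and 8 of 9 HOXD genes lie near or above the line, while in HOXB and HOXC the group means of HOXB2, HOXB3 and HOXC9 alone reach it, with HOXB7 above it in single libraries.

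By level, HOXA9 led the family at 61.2 ± 6.27 TPM (SD over all 18 libraries), above HOXD10 (40.8 ± 4.91) in every library and with no overlap of the ranges. HOXD11 (33.2 ± 3.31), HOXA10 (28.6 ± 3.16), HOXD8 (28.4 ± 1.55) and HOXB2 (25.4 ± 2.78) followed, with ranges that overlapped from each to the next. HOXA10 exceeded HOXD8 in 10 of 18 libraries, so this pair was not ordered. A gap separated HOXB2 from HOXA11 (17.8 ± 2.04), since HOXB2 was higher in all 18 libraries. HOXD9 (13.2 ± 1.74), HOXD3 (11.9 ± 2.29) and HOXA7 (10.8 ± 2.15) came next, again with overlapping ranges. The 10 genes named so far were those at 10 TPM or more, 4 of HOXA, 5 of HOXD and HOXB2. These levels sum coding and noncoding transcripts, and that of HOXD3 is not one of its coding mRNA. The 3′ genes HOXA2 to HOXA6 and HOXD4 ran from 2.43 to 6.96 TPM on average, HOXD13 was at 3.67 ± 0.892, HOXC9 at 2.07 ± 0.720, HOXB3 at 1.81 ± 0.431 and HOXD1 at 0.691 ± 0.323. HOXB2 was thus 25.4 TPM beside a HOXB3 of 1.81 TPM and a HOXB4 with at most 1 count in any library.

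Of the 17 genes below the filter, 12 never exceeded 3 estimated counts, which is 0.176 to 0.252 CPM at these depths, and HOXB5, HOXB9, HOXC5 and HOXC12 were at 0 in all 18 libraries. Counts at or under that limit do not show absence. HOXC10, 1 of the 12, had 3 counts in each library of control guide 1. HOXA13, HOXB13, HOXC6 and HOXD12 reached 4 counts at most. HOXB7, between HOXB6 and HOXB8 with about 1 count each in 1 library, reached up to 11.4 counts and 1.76 TPM in a library, and group means of 0.712 to 0.852 TPM. Its counts were few, and 62.6% of them sat on coding transcripts.

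Summed over members, HOXA and HOXD made up most of the HOX TPM in every library. HOXA held 38.2 to 50.2%, HOXD 39.3 to 51.0%, HOXB 7.49 to 10.9% and HOXC 0.434 to 1.57%. The HOXA sum was 126 ± 8.97 TPM (SD, n = 4) in control libraries, 144 ± 2.93 (n = 4) in CDKN1A, 149 ± 7.80 (n = 4) in KDM1A and 147 ± 7.61 (n = 6) in libraries labelled SPP1 knockdown. The HOXD sum was 146 ± 5.96, 140 ± 2.29, 134 ± 3.57 and 134 ± 9.44 TPM in the same order. The highest control library had a HOXA sum of 134 TPM, below the lowest of each knockdown group (142, 138 and 136 TPM). All 18 sums of the whole family lay between 296 and 321 TPM. These sums were not tested, and each knockdown was set against the same 4 control libraries.

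For a few genes the gene value was not the coding mRNA. HOXD3 was counted at 65 to 153 estimated counts a library, but 97.8% of its mean came from 1 noncoding transcript (ENST00000459979, chr2:176136612-176139663, plus strand), which lies far from the homeobox of the HOXD3 coding transcript (chr2:176171666-176171725). Its 3 coding transcripts together held 0 to 6.06 counts and were at 0 in 5 libraries. The gene AC009336.2, a read-through annotated across HOXD4 and HOXD3 that covers 95.8% of the main HOXD3 coding transcript, held 32.7 to 82.6 counts. HOXD4 itself held 39.3 to 69.7. How many of the read-through's counts are HOXD3 or HOXD4 mRNA was not tested, so the level given for HOXD3 is not one of its coding mRNA.

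**Figure D2:**
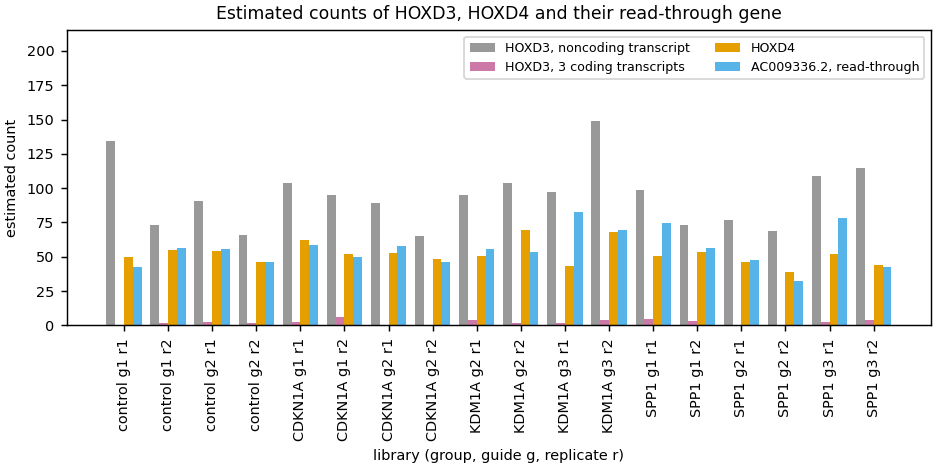
Estimated counts (bars, from 0) of the HOXD3 noncoding transcript, the 3 HOXD3 coding transcripts, HOXD4 and the read-through gene AC009336.2 in each of the 18 libraries. The HOXD3 coding bars reach at most 6.06 counts, below every HOXD4 and read-through bar.

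Smaller parts of other genes were on noncoding transcripts. The coding share was 75.6% for HOXA9, 85.8% for HOXA10, 67.1% for HOXD10 and 53.1% for HOXD11, and 100% for HOXA11, HOXD8, HOXD9 and HOXD13. The noncoding transcripts of HOXD10 share an exon with HOXD11. The library kit does not mark strand, so reads from antisense RNAs that overlap HOX exons cannot be told apart from HOX reads, and the cluster long noncoding RNAs were not analysed here. HOXA-AS3 overlaps 74.7% of the main HOXA7 transcript and HOXA10-AS 23.9% of a main HOXA10 transcript by annotation.

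**Figure D3:**
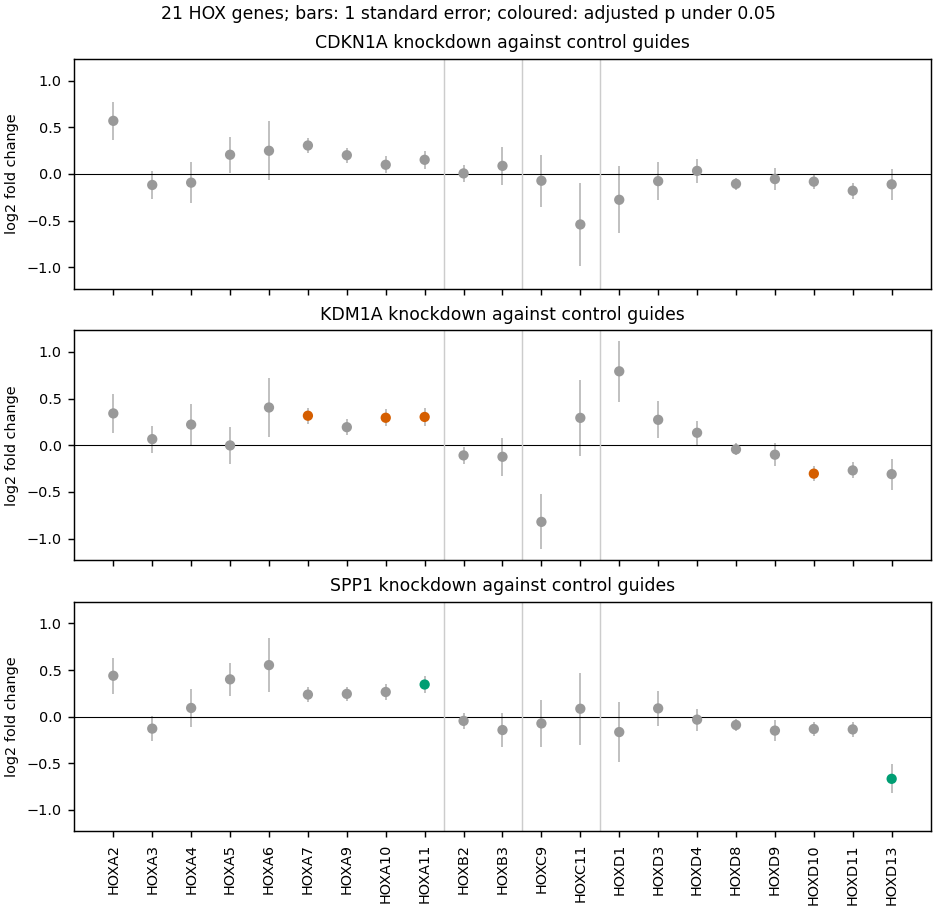
Log2 fold change (points) with 1 standard error (bars) of 21 of the 22 tested HOX genes against control guides, in cluster order, for each knockdown. Coloured points have an adjusted p under 0.05: none with CDKN1A guides, HOXA7, HOXA10, HOXA11 and HOXD10 with KDM1A guides, and HOXA11 and HOXD13 with SPP1 guides.

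In CDKN1A knockdown no HOX gene passed the test. edgeR called 0 of 22 at an adjusted p under 0.05, against 2% of all genes tested, 4 of 22 had an unadjusted p under 0.05 (16.5% of all genes had one), and DESeq2 also called 0. The median log2 fold change was -0.03 over the 22 genes and 0.00 over all genes. HOXA7, a trunk-level member, was nearest to a call. It was 8.64, 9.20, 9.65 and 9.55 CPM in control libraries (guide 1, then guide 2) and 11.5, 11.7, 11.1 and 11.4 in CDKN1A libraries. All 4 CDKN1A libraries lay above all 4 controls, and the log2 difference was 0.30 ± 0.08 (SE; edgeR adjusted p = 0.065). HOXA2 was 1.72 to 2.86 CPM in control and 2.89 to 3.6 in CDKN1A libraries (0.57 ± 0.21; adjusted p = 0.16). The other genes of HOXA and HOXD described in full did not pass in CDKN1A libraries either. HOXA9 was 45 to 46.1 CPM (0.20 ± 0.08; adjusted p = 0.22), HOXA10 28.3 to 30.5 (0.10 ± 0.09; 0.64) and HOXA11 22.7 to 24.0 (0.15 ± 0.10; 0.46). In HOXD, HOXD10 was 31.6 to 34.7 CPM (-0.08 ± 0.08; 0.65), HOXD11 23.0 to 27.5 (-0.18 ± 0.08; 0.29) and HOXD13 4.80 to 6.81 (-0.11 ± 0.17; 0.79). A fit with 1 coefficient per guide called 3 of 22, HOXA2, HOXA7 and HOXA9, and 8.66% of all genes. Groups of CPM did not overlap for 5 of 22 HOX genes, beside 13.1% of all genes.

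In KDM1A knockdown 3 HOXA genes rose and 1 HOXD gene fell. edgeR called 4 of 22 HOX genes, 3 up and 1 down, against 9.05% of all genes tested (5.33% up and 3.72% down). The median log2 fold change was 0.16 over the 22 and -0.01 over all genes. The rises were HOXA7, HOXA10 and HOXA11, the last 2 of the posterior, AbdB-like class that patterns limb and urogenital tract. The fall was HOXD10, of the same class in HOXD. By guide, HOXA10 and HOXA11 passed against control with each KDM1A guide, and HOXA7 and HOXD10 with guide 2 alone. Guide 2 called 6 of 22 HOX genes, beside 14.1% of all genes. Guide 3 called 3 of 22, HOXA9, HOXA10 and HOXA11, beside 11.5%.

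HOXA7 was 11.4, 11.8, 11.6 and 11.4 CPM in KDM1A libraries (guide 2, then guide 3), above every control library given before. The log2 fold change was 0.32 ± 0.08 (SE; edgeR adjusted p = 0.021), a fold of 1.25. HOXA10 was 26.1, 24.2, 29.1 and 30.1 CPM in control and 35.4, 32.1, 34.2 and 32.7 in KDM1A libraries. The groups did not overlap, and control guide 1 was lower than control guide 2 in both replicates. The log2 fold change was 0.29 ± 0.09 (adjusted p = 0.042). HOXA11 was 19.0, 20.6, 22.7 and 21.6 CPM in control and 27.3, 26.5, 24.9 and 24.9 in KDM1A libraries. These did not overlap either, with a log2 fold change of 0.30 ± 0.09 (adjusted p = 0.0499). HOXA9, the most abundant member, lay between HOXA7 and HOXA10 on the chromosome but was 36.4 to 42.2 CPM in control and 42.0 to 46.7 in KDM1A libraries, ranges that overlapped (0.19 ± 0.08; adjusted p = 0.16).

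HOXD10 was 35.7, 34.8, 35.2 and 36.0 CPM in control and 29.8, 26.6, 30.7 and 27.8 in KDM1A libraries. All 4 knockdown libraries were below all controls, at 81.0% of the control level (log2 fold change -0.30 ± 0.08; edgeR adjusted p = 0.020). Its neighbour HOXD11 was 25.3 to 32.8 CPM in control and 22.9 to 25.1 in KDM1A libraries, also without overlap (-0.27 ± 0.08; adjusted p = 0.052). Since these 2 genes share an exon they were also summed, and the sum had a log2 fold change of -0.28 (adjusted p = 0.0028). Counting coding transcripts alone, HOXD10 was at -0.31 (edgeR adjusted p = 0.028) and HOXA7 at 0.29 (0.038), while HOXA10 (0.29, adjusted p = 0.11) no longer passed. All counts of HOXA11 are on coding transcripts, so its counts were unchanged and it stayed at 0.30. Its adjusted p moved from 0.0499 to just above 0.05. Groups of CPM did not overlap for 6 of 22 HOX genes, beside 15.7% of all genes. HOXD13, at 5.03 to 5.61 CPM, was just below its lowest control of 5.75 (-0.31 ± 0.17; adjusted p = 0.29). None of the 4 calls was made with an offset for transcript length or with the libraries of a guide summed. Those fits also called fewer of all genes, 4.2% and 1.1%, against 9.05%. Leaving out single libraries also ended calls. HOXA7 was lost without either library of control guide 1 or without KDM1A guide 2 replicate 2 (adjusted p = 0.0536 to 0.0703), and HOXD10 without control guide 1 replicate 1, KDM1A guide 2 replicate 2 or KDM1A guide 3 replicate 2 (0.0507 to 0.0812). HOXA10 was lost without either library of control guide 1 or any of the 4 KDM1A libraries (0.0568 to 0.145), and HOXA11 without 14 of the 18 libraries (0.0506 to 0.147).

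HOXC9 and HOXD1, both of low level, gave unlike values with the 2 KDM1A guides. HOXD1, the 3′ end of its cluster and chosen after its values were seen, was 0.691, 0.697, 0.661 and 0.777 CPM in control libraries, 1.82 and 1.5 with KDM1A guide 2, and 0.873 and 0.754 with guide 3. Against control it did not pass over both guides (0.79 ± 0.33; edgeR adjusted p = 0.15); guide 2 alone passed (1.22 ± 0.35; adjusted p = 0.032), a comparison that called 14.1% of all genes, and guide 3 alone was 0.20. HOXC9, which takes part in trunk patterning, was 1.11 to 1.86 CPM in control, 0.396 and 0.624 with guide 2, and 0.873 and 1.44 with guide 3. It too missed the threshold over both guides (-0.82 ± 0.30; adjusted p = 0.092) and passed with guide 2 alone (-1.51 ± 0.35; adjusted p = 0.0089). The test of guide 3 against guide 2 called 0 of 22 HOX genes, against 6.15% of all genes, with 4 at an unadjusted p under 0.05 (18.8% of all genes) and adjusted p of 0.18 for HOXD1 and 0.12 for HOXC9. KDM1A mRNA was 62.6% of control with guide 2 and 43.4% with guide 3.

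In libraries labelled SPP1 knockdown HOXA11 rose and HOXD13 fell. edgeR called these 2 of 22 against 5.46% of all genes tested (2.4% up and 3.06% down). The calls did not come from every guide. Against control, guide 1 called 0 of 22 HOX genes, beside 4.58% of all genes. Guide 2 called HOXA2, HOXA9, HOXA10 and HOXA11, all up, beside 10.6%. Guide 3 called HOXA9, HOXA10 and HOXA11 up and HOXD13 down, beside 10.5%. The median log2 fold change was 0.03 over the 22 and 0.00 over all genes. HOXA11 was 22.2 CPM at the lowest, 27 at the median and 32.1 at the highest of 6 libraries, against the 19.0 to 22.7 of control. It exceeded every control in 5 of 6 libraries (0.34 ± 0.09; edgeR adjusted p = 0.028). HOXD13, a distal limb and genital gene, was 7.81, 6.55, 5.75 and 6.06 CPM in control and 3.20 at the lowest, 3.69 at the median and 6.12 at the highest of the SPP1 libraries. It was below every control in 5 of 6, at 63.0% of the control level (-0.67 ± 0.16; adjusted p = 0.018). HOXA10 (28.3 to 38.8 CPM; 0.26 ± 0.08, adjusted p = 0.066) and HOXA9 (40.8 to 54.9 CPM; 0.24 ± 0.08, adjusted p = 0.067) did not pass, nor did HOXA7 (9.24 to 11.9 CPM; 0.24 ± 0.08, adjusted p = 0.082). HOXD10 was 27.3 to 39 CPM (-0.13 ± 0.07; adjusted p = 0.31) and HOXD11 23.8 to 30.2 (-0.14 ± 0.08; 0.33). In a fit of the 2 groups alone, or with the libraries of a guide summed, neither call was made. Those fits also called fewer of all genes, 2.99% and 0.00669%, against 5.46%. Without either library of control guide 1 both calls were lost, and HOXA11 also without SPP1 guide 2 replicate 2 (adjusted p = 0.0563 to 0.0956 for HOXA11 and 0.0617 to 0.0709 for HOXD13). No HOX gene had groups of CPM without overlap, beside 6.34% of all genes.

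Within the SPP1 group the 3 posterior HOXA genes split by guide. HOXA9 was 41.6 and 40.8 CPM with guide 1, 48.1 and 44.0 with guide 2, and 54.9 and 52.4 with guide 3. HOXA10 was 28.4 and 28.3 with guide 1, 32.6 and 34.3 with guide 2, and 35.1 and 38.8 with guide 3. HOXA11 was 22.7 and 22.2 with guide 1, 26.9 and 29.4 with guide 2, and 27.1 and 32.1 with guide 3. In each of the 3 genes both libraries of guide 1 were below all 4 others. Guide 1 against guides 2 and 3, with a coefficient per guide, gave -0.27 ± 0.06 for HOXA9, -0.31 ± 0.07 for HOXA10 and -0.36 ± 0.07 for HOXA11 (edgeR adjusted p = 0.016, 0.019 and 0.015), 3 of 22 against 3.9% of all genes. SPP1 mRNA was 39.6% of control with guide 1, 79.6% with guide 2 and 66.8% with guide 3. The 2 libraries of guide 3 were unlike in SPP1 mRNA, at 63.0 and 21.7 CPM, the latter the lowest of all 18. Without 1 library of guide 1 none of the 3 was called (0.0556 to 0.16 for HOXA9, with the loss of guide 2 replicate 1 included, 0.155 for HOXA10, 0.127 to 0.152 for HOXA11). HOXD13 did not follow this split, at 3.55 and 4.55 CPM with guide 1, 6.12 and 3.20 with guide 2, and 3.55 and 3.83 with guide 3.

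**Figure D4:**
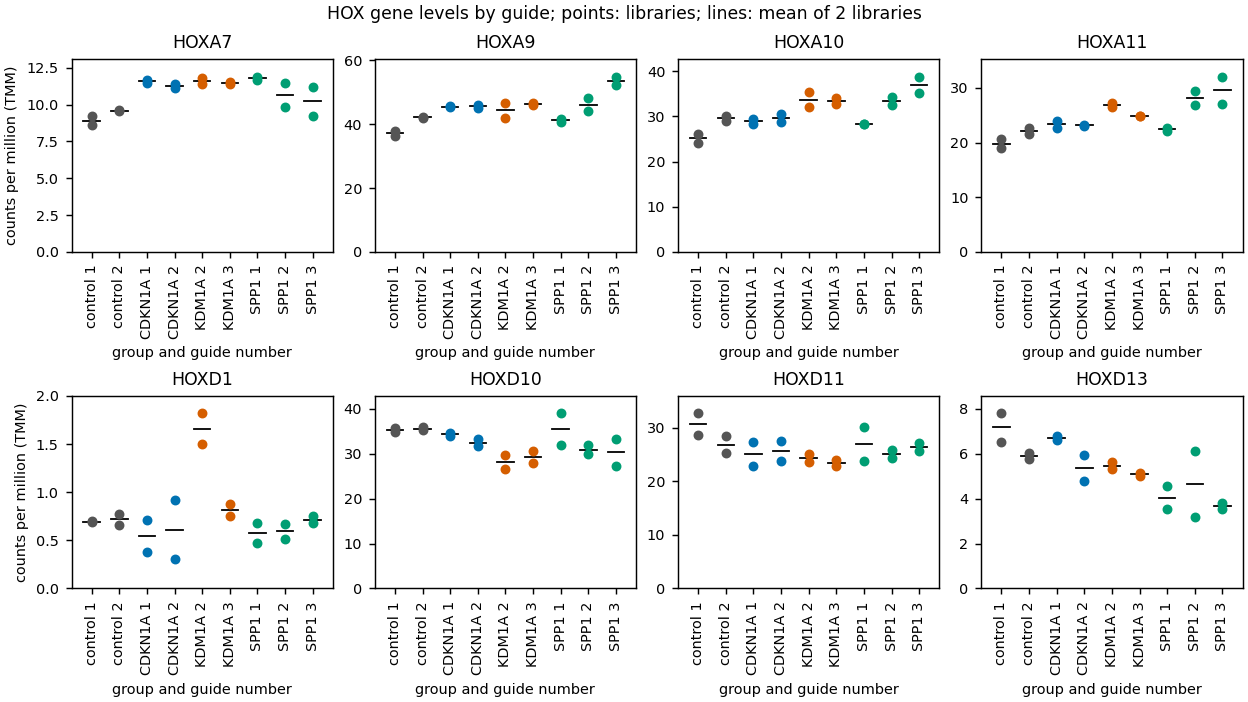
TMM-scaled CPM of 8 HOX genes by group and guide, with 1 point per library and a line at the mean of the 2 libraries of a guide; each axis starts at 0. The 2 libraries of control guide 1 are the lowest of all 18 for HOXA7 (8.64 and 9.20), HOXA9 (37.9 and 36.4), HOXA10 (26.1 and 24.2) and HOXA11 (19.0 and 20.6).

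The control guides themselves did not differ by test. Guide 2 against guide 1 called 0 of 22 HOX genes, against 1.34% of all genes, with 3 at an unadjusted p under 0.05 (14.5% of all genes): HOXA5 (0.54), HOXA9 (0.18) and HOXA10 (0.24), with adjusted p of 0.27, 0.22 and 0.17. Both libraries of guide 1 were nonetheless the lowest of all 18 for HOXA7, HOXA9, HOXA10 and HOXA11. Without control guide 1 none of the calls in KDM1A or SPP1 libraries was made: HOXA7 was 0.26 (edgeR adjusted p = 0.23), HOXA10 0.18 (0.45), HOXA11 0.22 (0.39) and HOXD10 -0.31 (0.13) in KDM1A knockdown, and HOXA11 0.26 (0.32) and HOXD13 -0.52 (0.25) in SPP1. All kept their direction. CDKN1A guide 2 against guide 1 called 0 of 22, against 1.28% of all genes, with 1 at an unadjusted p under 0.05 (9.39% of all genes).

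The leading genes of the other 2 clusters passed in none of the 3 comparisons against control. HOXB2, a hindbrain and neck-level gene, was 16.5 to 19.1 CPM in control, 15.9 to 20.3 in CDKN1A, 15.9 to 16.6 in KDM1A and 15.6 to 19.7 in SPP1 libraries. The 4 ranges overlapped, and its log2 fold changes were 0.00 ± 0.09, -0.11 ± 0.09 and -0.05 ± 0.08 in the order CDKN1A, KDM1A and SPP1 (SE; edgeR adjusted p = 0.99, 0.53 and 0.82). HOXB3 was 1.87 to 3.20 CPM over the control, CDKN1A and KDM1A libraries and 1.83 to 3.01 in SPP1, with log2 fold changes of 0.09 ± 0.20, -0.12 ± 0.20 and -0.14 ± 0.19 (adjusted p = 0.88, 0.78 and 0.72). HOXC9 overlapped the control range in CDKN1A (1.20 to 1.69 CPM; -0.07 ± 0.28, adjusted p = 0.93) and SPP1 libraries (1.18 to 1.83 CPM; -0.07 ± 0.26, adjusted p = 0.91). HOXC11, the next gene of HOXC by level, ranged from 0.141 to 0.942 CPM over all groups, with log2 fold changes of -0.54 ± 0.45, 0.29 ± 0.41 and 0.08 ± 0.39 (adjusted p = 0.60, 0.73 and 0.93).

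Between knockdowns, 2 HOXD genes at the cluster's ends differed. HOXD1 was lower in CDKN1A (0.379, 0.713, 0.917 and 0.304 CPM) than in KDM1A libraries (log2 difference -1.07 ± 0.33; edgeR adjusted p = 0.036), 1 of 22 against 14.9% of all genes. It was higher in KDM1A (0.754 to 1.82 CPM) than in SPP1 libraries (0.469 to 0.749 CPM), with ranges that nearly touched. The log2 difference was 0.96 ± 0.30 (edgeR adjusted p = 0.043), 1 of 22 called against 11.9% of all genes. Both rest on KDM1A guide 2, since without it the differences were -0.48 (adjusted p = 0.53) and 0.37 (0.70). HOXD13 was higher in CDKN1A (4.80 to 6.81 CPM) than in SPP1 libraries (0.55 ± 0.16; adjusted p = 0.026), 1 of 22 against 12%, and 6 single libraries ended this call (0.0529 to 0.0841): CDKN1A guide 1 replicates 1 and 2 and guide 2 replicate 2, and SPP1 guide 1 replicate 1, guide 2 replicate 2 and guide 3 replicate 1.

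Promoter sequence is shown for 4 of the genes called against control, from RefSeq's GRCh38.p14 table: the longest run of the 250 bases before the start that lies outside annotated exons. HOXA11 is left out because an exon covers its window, as is a second window of HOXA10. The stretches shown for HOXA7 and HOXA10 lie inside the GENCODE 29 spans of these genes. They thus precede a RefSeq start that is not the most 5′ annotated one. Capitals mark 3 motifs on either strand, overlaps included: the TATA box, searched as TATAAA, the CCAAT box by its own letters, and the GC box, searched as GGGCGG.
HOXA7, chr7:27156755-27156925, minus strand: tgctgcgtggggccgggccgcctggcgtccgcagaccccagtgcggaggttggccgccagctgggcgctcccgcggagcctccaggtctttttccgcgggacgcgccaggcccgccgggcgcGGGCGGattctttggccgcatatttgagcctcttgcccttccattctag
HOXA10, chr7:27174321-27174570, minus strand: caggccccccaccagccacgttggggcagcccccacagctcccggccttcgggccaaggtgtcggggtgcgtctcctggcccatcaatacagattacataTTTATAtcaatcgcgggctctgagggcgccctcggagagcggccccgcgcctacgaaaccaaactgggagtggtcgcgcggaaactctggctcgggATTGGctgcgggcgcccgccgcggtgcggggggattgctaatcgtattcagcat
HOXD10, chr2:176116528-176116578, plus strand: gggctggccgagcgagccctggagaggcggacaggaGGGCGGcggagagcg
HOXD13, chr2:176092471-176092720, plus strand: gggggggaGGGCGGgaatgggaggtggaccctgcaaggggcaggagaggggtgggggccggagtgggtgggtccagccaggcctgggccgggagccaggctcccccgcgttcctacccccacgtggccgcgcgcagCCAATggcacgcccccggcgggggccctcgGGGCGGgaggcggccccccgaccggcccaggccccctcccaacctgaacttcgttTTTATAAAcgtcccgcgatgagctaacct
HOXA10 and HOXD13 hold a TATA box, HOXD13 also a CCAAT box and 2 GC boxes, and HOXA10 a CCAAT box. The table held 27 windows of 300 bases (250 before and 50 after a start) for 20 HOX genes, 7 of them for HOXA3 alone. The windows of HOXC4 and HOXC5 are the same stretch, counted for each gene. TATAAA was in 5 of the 27 windows (18.5%, against 11.5% of all 35116 windows), CCAAT in 18 (66.7%, against 34.6%), GGGCGG in 13 (48.1%, against 44.9%), the HOX-PBX motif TGATNNAT in 3 (11.1%, against 7.40%) and the direct repeat of retinoic acid receptors in none (0.00569%). Windows of expressed or low genes (22) had a median of 7.83 CpG per 100 bases, and all windows 4.67. Those of genes below the filter (5) had 5, the value of the stretch counted for both HOXC4 and HOXC5. A match is only a match of letters.

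The cofactors and regulators of HOX genes were taken as fixed lists. Their calls stand beside 2% of all genes called in CDKN1A knockdown, 9.05% in KDM1A knockdown and 5.46% in SPP1 libraries. Of 9 tested TALE cofactors, which bind DNA beside HOX proteins, PBX3 (-0.26 ± 0.07; edgeR adjusted p = 0.021) and TGIF1 (-0.29 ± 0.08; 0.029) fell in KDM1A knockdown, while in SPP1 libraries MEIS1 rose (0.30 ± 0.08; 0.028) and TGIF1 fell (-0.27 ± 0.08; 0.039). Of 31 Polycomb genes, CBX6 rose (0.50 ± 0.08; 0.00030) and MTF2 fell (-0.29 ± 0.09; 0.041) in KDM1A knockdown, and none passed in the other 2. These 2 of 31 are a smaller share than the 9.05% of all genes called there. Of 19 Trithorax, demethylase and cohesin genes, PSIP1 and RAD21 rose in CDKN1A knockdown (both 0.22), and PSIP1 rose (0.26) and KDM6A fell (-0.19) in KDM1A knockdown. Another member of that list is Y-linked and not reported.

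Of 10 tested retinoid genes, 4 passed in KDM1A knockdown, beside 9.05% of all genes. ALDH1A1, which makes retinoic acid, rose from 5.05 ± 0.894 (SD, n = 4) to 14.5 ± 1.77 CPM (n = 4), with a log2 fold change of 1.52 ± 0.18 (edgeR adjusted p = 2.3e-05). CRABP2, which carries retinoic acid to the nucleus, rose by 1.07 ± 0.29 on the log2 scale, whereas RDH10, which makes retinal, changed by -0.57 ± 0.09 and the receptor RXRA by -0.39 ± 0.07. Of 14 tested genes that flank the clusters, SKAP2 alone passed with KDM1A guides (0.38 ± 0.07, edgeR adjusted p = 0.0021), beside 9.05% of all genes. None passed in the other comparisons against control. None of the 8 ParaHox, caudal and even-skipped genes was tested.

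Among 25 tested positional factors outside the clusters, KDM1A knockdown raised 2 and lowered 6, beside 5.33% and 3.72% of all genes. TBX15, a T-box gene of limb and skin patterning, fell from 6.99 to 2.06 CPM on average (-1.75 ± 0.18; edgeR adjusted p = 5.0e-06). IRX2 (-0.80 ± 0.13) and FOXD1 (-0.43 ± 0.09) fell as well. In CDKN1A knockdown IRX2 fell (-0.67 ± 0.13; edgeR adjusted p = 0.015) and TBX3 rose (0.47 ± 0.11; 0.041), and in SPP1 libraries ALX1 rose (0.60 ± 0.17; 0.043). Beside these calls, 2% of all genes passed in CDKN1A knockdown and 5.46% in SPP1 libraries. Fibroblast markers moved in the same comparisons as the HOX calls. Of 10 tested markers 4 rose in KDM1A knockdown, against 5.33% of all genes: LUM from 1.26 to 17.5 CPM, with COL3A1, DCN and PDGFRB. In SPP1 libraries COL3A1 alone of the 10 rose, against 2.4% of all genes. The summed TPM of the fibroblast list was 8681 to 9354 in control and 8722 to 8857 in KDM1A libraries. The melanocyte list summed to 2.25 to 5.44 TPM and the endothelial list to 19.0 to 33.8, of which TEK, which fell in SPP1 libraries (-0.39 ± 0.09), made up 18.3 to 33.3. None of the 4 tested keratinocyte and 6 tested pluripotency markers passed in any comparison against control. Of the defining markers, CDH5 and KRT1 were at or near 0, but the 8 genes of the keratinocyte list summed to 145 to 197 TPM. The part of other cell types in the HOX values was not tested.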

How the data were processed

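Poly(A) RNA of 18 hiF-T libraries was measured by RNA-seq. The authors quantified transcripts with kallisto on hg38, per the submitters' processing notes, and deposited an estimated count and a TPM (transcript abundance scaled for length and depth) for each of 188753 transcripts per library, per the file headers. The sources used here do not give the kallisto version or the annotation. Groups and guides follow the labels.

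Counts and TPM were summed per gene after matching 169797 transcripts (90.0%) by Ensembl ID to 35579 genes of GENCODE 29, and unmatched transcripts held 2.49 to 2.62% of counts. Gene counts were rounded and tested with edgeR 4.0.16 in R 4.3.3, by quasi-likelihood with TMM factors and 1 coefficient per group over all 18 libraries. filterByExpr with a count minimum of 10 kept 13527 genes, over which p-values were adjusted by Benjamini-Hochberg; a call is an adjusted p under 0.05. Guides were compared in a fit with 1 coefficient per guide. The biological coefficient of variation was 9.32% (groups) and 6.92% (guides), and the fit was tested on simulated data. Alternatives were DESeq2 1.42.0, limma 3.58.1 on log2(TPM + 0.5), RLE factors, no filter, a length offset, summed libraries, a fit of the 2 groups alone, a replicate block, and libraries or guides left out. The sources give no batch or date.

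Described in full are the HOX genes called against control and the 2 of highest TPM in each cluster, with at most 4 called genes of each other list per comparison. Members, lists and rules were chosen with earlier results of these data known. Sequences come from GENCODE 29 transcripts (homeobox) and RefSeq GRCh38.p14 (promoters). Some items are not reported here.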

Additional observations from a re-analysis of the deposited data

Results flagged for a closer look

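HOXA9 was 42.0 CPM in KDM1A guide 2 replicate 2, apart from the other 3 KDM1A libraries at 46.0 to 46.7. It was the 1 such library among 48 groups examined over 12 genes, and chance marks about 1 group in 20 this way. HOXD1 differed between CDKN1A and KDM1A knockdown (log2 difference -1.07, edgeR adjusted p = 0.036) and between KDM1A and SPP1 knockdown (0.96, adjusted p = 0.043). HOXD13 differed between CDKN1A and SPP1 knockdown (0.55, adjusted p = 0.026). SPP1 guide 1 differed from guides 2 and 3 in HOXA9 (-0.27, adjusted p = 0.016), HOXA10 (-0.31, adjusted p = 0.019) and HOXA11 (-0.36, adjusted p = 0.015). AC009336.2, the read-through gene annotated across HOXD4 and HOXD3 and no member of the family by symbol, held 55.9 estimated counts on average (32.7 to 82.6), above the limit of 3 counts.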

How the results depend on the processing

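Most HOX calls depended on the processing. Counts of called HOX genes are given in the order KDM1A against control (4 in the report), SPP1 against control (2), CDKN1A against KDM1A (1), CDKN1A against SPP1 (1), KDM1A against SPP1 (1) and SPP1 guide 1 against guides 2 and 3 (3). The fits of the report called 3.9 to 14.9% of all genes in these 6 comparisons. With an offset for transcript length the HOX counts were 0, 1, 0, 0, 0 and 0, beside 1.11 to 7.3% of all genes. With the libraries of a guide summed, the first 5 were 0, 0, 0, 0 and 0, beside 0.00669 to 2.94% of all genes. With 1 coefficient per guide they were 7, 4, 4, 3 and 3, and CDKN1A against control had 3 in place of 0. That fit called 8.66 to 22.5% of all genes in these 6 comparisons. With limma on log2(TPM + 0.5) KDM1A against control had 1, SPP1 against control 1, and CDKN1A against KDM1A, KDM1A against SPP1 and the SPP1 guides 0 each. Of all genes, limma called 0.717 to 6.89% there. With DESeq2 SPP1 against control had 4, the SPP1 guides 1, and CDKN1A against KDM1A and KDM1A against SPP1 0 each. In that order DESeq2 called 2.7, 1.19, 6.05 and 4.87% of 35579 genes. With no filter on low counts KDM1A against control had 2, and CDKN1A against KDM1A and KDM1A against SPP1 0 each. In that order 3.92, 6.15 and 4.81% of 26450 genes were called. In a fit of the 2 groups alone SPP1 against control, CDKN1A against SPP1 and KDM1A against SPP1 had 0 each, and CDKN1A against KDM1A 2. In that order 2.99, 9.99, 7.67 and 20.1% of all genes were called. With coding transcripts alone, an alternative chosen after seeing the data, KDM1A against control had 2. The cause of these differences was not tested. RLE factors left every count within 1.5 times, and the number expressed was 22 at 0.5 TPM and 19 at 2 TPM.

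Leaving out 1 library or 1 guide gave 0 to 1 calls in CDKN1A, 0 to 5 in KDM1A and 0 to 4 in SPP1 libraries against control. It gave 0 to 2 in each of the 3 comparisons between knockdowns, 0 to 0 for the control and the CDKN1A guides, 0 to 1 for the KDM1A guides and 0 to 5 for the SPP1 guides. The call of HOXD1 was lost without 4 single libraries against CDKN1A (edgeR adjusted p = 0.106 to 0.135) and without 12 of 18 against SPP1 (0.0506 to 0.201).

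With the replicate block the counts were 0 for CDKN1A, 3 for KDM1A and 2 for SPP1 libraries against control, 1 for CDKN1A against KDM1A, 1 for CDKN1A against SPP1 and 0 for KDM1A against SPP1, and 0, 0, 0 and 3 for the guides of control, CDKN1A, KDM1A and SPP1. Over 36 pairs of guides, same-numbered libraries had correlations of -0.117 to 0.073 (median -0.011), so the numbers do not pair them.

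No called gene changed direction. Uncalled values near 0 did. With the length offset HOXB2 was -0.049 and HOXB3 -0.016 with CDKN1A guides and HOXC11 -0.10 with SPP1 guides, and with limma HOXB2 was -0.032 and HOXC11 -0.044. With a library or guide left out, log2 fold changes in CDKN1A knockdown ran from -0.018 to 0.23 for HOXA10, -0.14 to 0.15 for HOXB2, -0.011 to 0.22 for HOXB3, -0.26 to 0.096 for HOXC9 and -0.28 to 0.045 for HOXD13. HOXB3 ran from -0.22 to 0.015 in KDM1A knockdown, and in SPP1 libraries HOXB2 ran from -0.12 to 0.038, HOXC9 from -0.20 to 0.043 and HOXC11 from -0.15 to 0.34.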
